A study of Mus musculus with 9 samples.

Results

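Aminoacyl-tRNA synthetases are the enzymes that join each amino acid to its transfer RNA, and their transcripts were measured in NIH-3T3 cells after miR-378-3p was supplied or blocked. The genes were chosen by symbol: a 1-letter amino acid code followed by "ars", with nothing, 1 or 2 after it, together with Farsa, Farsb, Fars2 and Eprs. Of 19938 genes named on the array, 34 met this rule, 18 for cytosolic enzymes and 16 for mitochondrial ones (those whose symbol ends in 2). The RefSeq gene table holds 37 symbols of this form. Of the other 3, Aars was left out because its probe set is also listed for Exosc6, and 2 had no named probe set and are not analysed here.

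NIH-3T3 is an established line of mouse embryonic fibroblasts. All cells were transfected with RNA at 25 nM using the lipid reagent DharmaFECT 1, and total RNA was taken after 48 hours. The control group received RISC-free siRNA, which is modified so that it does not enter the silencing complex, the mimic group received a synthetic miR-378 mimic, and the inhibitor group received an RNA that blocks this microRNA. Each group had 3 arrays. Whether they stand for separate cultures is not in the labels, so a p-value here reflects the spread between these arrays alone, which may be technical. No mimic or inhibitor of another sequence was included, so effects of miR-378-3p and of transfecting a mimic or inhibitor as such cannot be told apart.

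Each synthetase recognises 1 amino acid and its tRNAs, activates the amino acid with ATP and transfers it to the end of the tRNA. The enzymes form a pair of unrelated structural families, class I and class II. For most amino acids, most cells carry separate genes for the enzymes of the cytosol and of the mitochondrion. Gars and Kars each supply both compartments, and Eprs encodes a single protein with both glutamyl and prolyl activity. Several cytosolic enzymes are held together in a multisynthetase complex with the scaffold proteins Aimp1, Aimp2 and Eef1e1. Genes of many cytosolic synthetases are known to respond to amino acid shortage through the transcription factor ATF4, and growth factors and Myc are known to raise genes of protein synthesis.

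The values are log2 signals per probe set, on a scale where 1 unit is a doubling. Array medians ran from 3.94 to 4.03. The upper quartile was 5.64 to 5.65 on the control arrays, 5.67 to 5.76 on the inhibitor arrays and 5.55 to 5.66 on the mimic arrays. In a principal component analysis, 60.5% of the variance fell on the first axis, where mimic 3 (-20.5) and inhibitor 1 (20.9) lay farthest out on opposite sides, with the controls between -4.38 and -2.78. On that axis mimic 2 lay within the control range at -3.95 and mimic 1 at -9.15, with inhibitor 2 at 9.88 and inhibitor 3 at 13.4. Of 10 fibroblast markers 9 lay above the level filter of 3.86, led by Col1a2 at 11.2. Above it also lay 3 of 5 adipocyte markers (highest Lpl, 5.81) and 3 of 6 muscle markers (highest Acta1, 4.89). So did 2 of 7 for macrophages (Cd68, 4.19), 2 of 7 for epithelium (Krt8, 4.18) and 2 of 6 for endothelium (Pecam1, 3.98). The mean over the markers of macrophages, epithelium and endothelium stayed between 3.63 and 3.85 on each array, and that over muscle and adipocyte markers between 4.05 and 4.36. The cells were measured in bulk, so fewer cells of a type and less RNA per cell cannot be told apart.

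The inhibitor comparison asks which of these genes rise when miR-378-3p is blocked. Of 33 synthetase genes tested, 10 rose with the inhibitor and 0 fell (limma, adjusted p under 0.05, with 16 higher and 0 lower at an unadjusted p under 0.05), while 11.1% of all genes tested rose and 3.76% fell. At an unadjusted p under 0.05, 2423 of all 11963 genes tested were higher and 1025 lower (limma). The cytosolic genes Vars, Iars, Rars, Wars, Cars, Tars, Mars1 and Gars and the mitochondrial genes Yars2 and Mars2 made up the 10. The rises ran from 0.20 for Gars to 0.44 for Vars and Iars, and none reached 1.5-fold. The median log2 fold change was 0.15 over the 33 genes and 0.01 over all genes tested. These medians were 0.09 and -0.01 after quantile normalization, and 0.08 and -0.06 after median centring. The groups did not overlap, with every inhibitor array above every control, in 19 of the 33, against 24.9% of all genes tested. With quantile normalization 8 of the 33 rose and 0 fell, and with median centring 6 and 0, while over all genes tested 1330 rose and 450 fell as deposited, 1232 and 1166 after quantile normalization, and 1153 and 1140 after centring (limma).

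**Figure D1:**
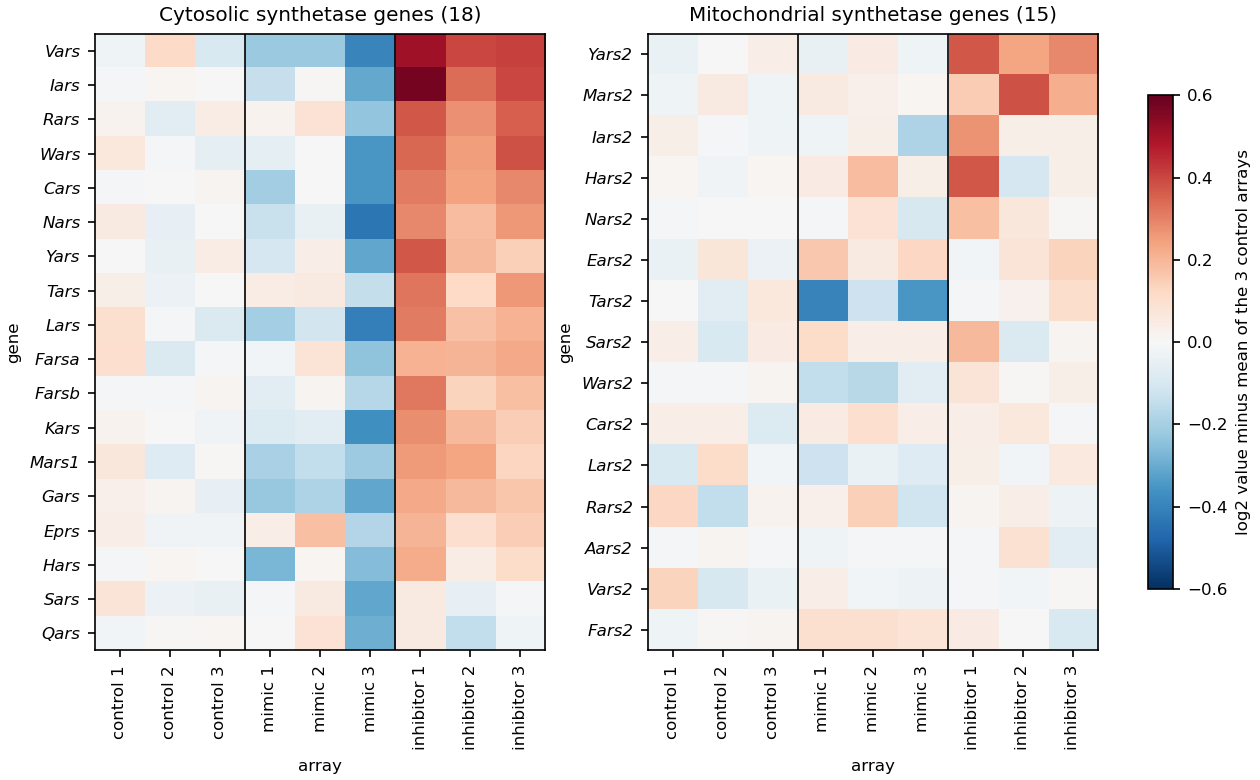
Heat map of the log2 value of each synthetase gene on each array (columns, with lines between the control, mimic and inhibitor groups) minus the mean of the 3 control arrays (colour). Among the cytosolic genes on the left, 16 of 18 are above every control on all inhibitor arrays (the exceptions are Sars and Qars), against 24.9% of all genes tested. The cytosolic median on mimic 3 is -0.31, while the mitochondrial genes on the right have medians between -0.03 and 0.05 on the mimic and inhibitor arrays.

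Vars, which encodes the enzyme for valine, read 7.37, 7.51 and 7.31 on the control arrays and 7.91, 7.80 and 7.81 with the inhibitor. Iars, for isoleucine, read 7.55, 7.58 and 7.56 in the controls and 8.14, 7.90 and 7.96 with the inhibitor. Every inhibitor array lay above every control for both genes, and the controls of Iars had an SD of 0.01. The log2 fold changes were 0.44 ± 0.07 for Vars (SE; limma, adjusted p = 0.00258) and 0.44 ± 0.08 for Iars (SE; limma, adjusted p = 0.00636). A second probe set listed for Iars had a mean of 6.45 in the controls and 6.82 with the inhibitor, a difference of 0.37. Both calls held whichever of the 9 arrays was dropped (limma, adjusted p of at most 0.0163 for Vars and 0.0304 for Iars).

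Rars, for arginine, read 8.84, 8.75 and 8.86 in the controls against 9.19, 9.09 and 9.18 with the inhibitor, a rise of 0.34 ± 0.08 (SE; limma, adjusted p = 0.0182). Wars, for tryptophan, which is also known as an interferon-induced gene, went from 7.08, 7.0 and 6.96 to 7.36, 7.26 and 7.40, a rise of 0.33 ± 0.08 (SE; limma, adjusted p = 0.0279). Cars, for cysteine, read 7.03, 7.04 and 7.06 in the controls and 7.35, 7.28 and 7.33 with the inhibitor, a rise of 0.28 ± 0.08 (SE; limma, adjusted p = 0.0341). In these 3 genes, too, the inhibitor arrays were all above the controls. Mars1, for methionine, read 7.46, 7.32 and 7.40 in the controls and 7.65, 7.63 and 7.52 with the inhibitor, and rose by 0.21 ± 0.06 (SE; limma, adjusted p = 0.0325). Gars, for glycine in both compartments, read 8.80, 8.79 and 8.72 in the controls and 9.0, 8.97 and 8.93 with the inhibitor, and rose by 0.20 ± 0.05 (SE; limma, adjusted p = 0.0263). The arrays of Mars1 and Gars did not overlap between these groups, and their SDs within each group were at most 0.07. Tars, for threonine, rose by 0.23 ± 0.07 and stood just inside the threshold (SE; limma, adjusted p = 0.046).

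These smaller calls rested on the full set of arrays. With control 1, 2 or 3, inhibitor 1 or inhibitor 3 left out, 4 of the 33 genes passed in each case, and without mimic 3 it was 16 (limma). The call of Rars ended without control 1, control 2, inhibitor 1 or inhibitor 3 (limma, adjusted p of up to 0.0764), that of Wars without any control, inhibitor 1 or inhibitor 3 (0.106) and that of Mars1 without control 2, control 3, mimic 1, inhibitor 1 or inhibitor 2 (0.127). Those of Gars and Tars ended in 6 of the 9 fits (0.107 and 0.149), without any control or with inhibitor 1 or 3 left out, and also without inhibitor 2 for Gars and without mimic 1 for Tars. The call of Cars held only in the fits that left out mimic 2 or mimic 3 (limma, adjusted p of up to 0.106 in the other 7).

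Among the other cytosolic genes, 8 of 10 had every inhibitor array above every control without passing the threshold, an order found in 24.9% of all genes tested. That share counts called genes too and is not matched for level. The 8 were Nars (asparagine, 0.24), Yars (tyrosine, 0.24), Lars (leucine, 0.23), Farsa and Farsb (the subunits of the phenylalanine enzyme, 0.21 each), Kars (lysine in both compartments, 0.21), Eprs (0.15) and Hars (histidine, 0.13). Farsb lay just outside the threshold (limma, adjusted p = 0.0511) and Lars followed at 0.0834. Nars, for example, read 9.10, 8.99 and 9.04 in the controls and 9.33, 9.23 and 9.30 with the inhibitor (limma, adjusted p = 0.094). Lars read 7.03, 6.92 and 6.85 in the controls and 7.24, 7.11 and 7.14 with the inhibitor, Kars 7.25, 7.23 and 7.20 against 7.51, 7.42 and 7.38, and Yars 8.18, 8.13 and 8.22 against 8.55, 8.38 and 8.32. The inhibitor arrays were above the controls in each of these 4 genes. Sars, for serine, and Qars, for glutamine, were at -0.00 and -0.04 with overlapping groups (limma, adjusted p = 0.995 and 0.825).

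**Figure D2:**
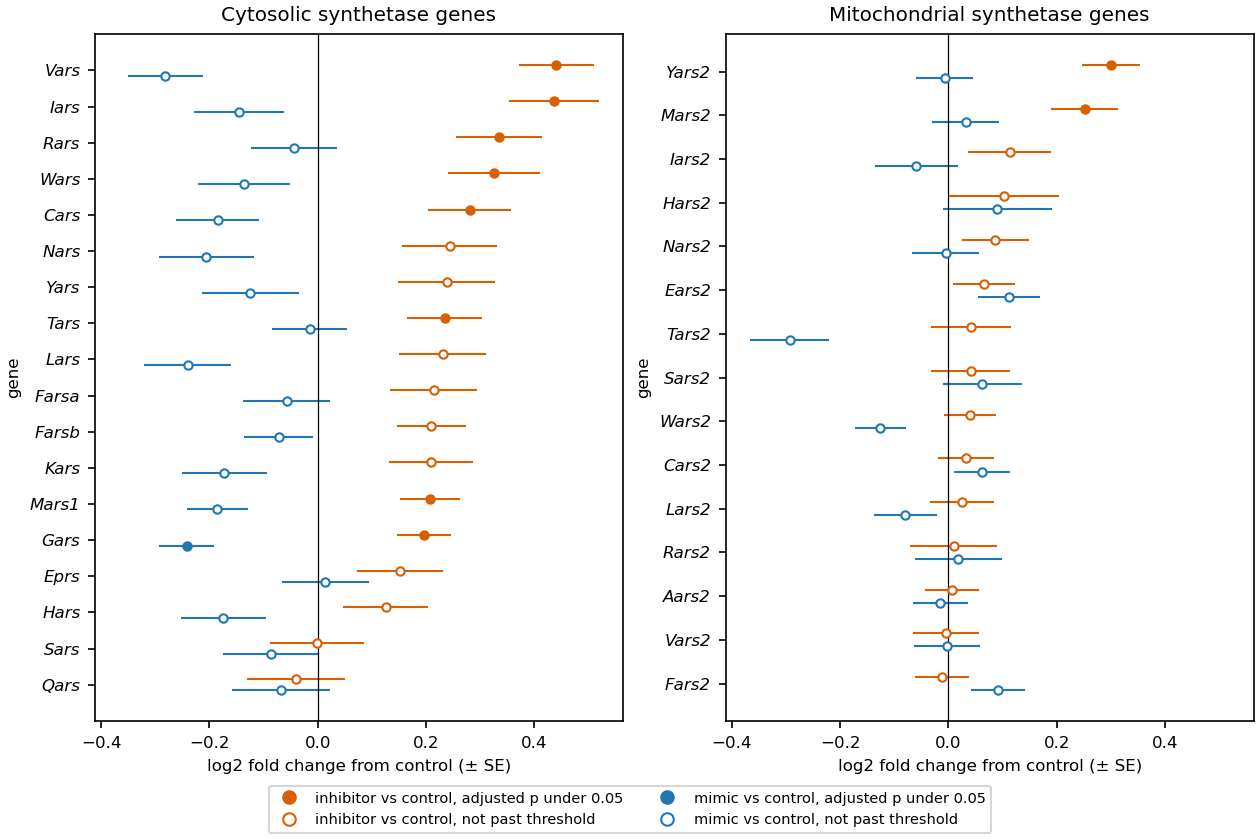
Log2 fold change from the control (x axis, point with its SE) of each synthetase gene with the inhibitor (orange) and the mimic (blue); filled points had a limma adjusted p under 0.05. For 16 of 18 cytosolic genes the inhibitor point is above 0, and Gars alone has a filled point for the mimic.

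In all, 8 of 18 cytosolic synthetase genes rose and 0 fell with the inhibitor, and 16 had a fold change above 0, against 54.2% of all genes tested, with a median log2 fold change of 0.22 (limma, 14 higher and 0 lower at an unadjusted p under 0.05). Of all 11963 genes tested, 2423 were higher and 1025 lower at that unadjusted p. Class I cytosolic enzymes (6 of 9 called, median 0.28) and class II ones (2 of 8, median 0.21) both had medians above 0, and so did members of the multisynthetase complex (3 of 7, median 0.21) and the enzymes outside it (5 of 11, median 0.23). The difference between these classes was not tested. Cytosolic members had mean levels from 6.5 to 9.06. Of the 3223 genes tested with levels in that range, 18.5% rose with the inhibitor.

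The start regions of the genes were searched for the letters known to be bound by ATF4 with C/EBP proteins (TGATGNAA) and for the E-box letters bound by Myc and related factors (CACGTG), on both strands. RefSeq promoter windows (GRCm38.p6, 250 bases before to 50 after a gene's start) were at hand for 25 of the 34 genes, 11 cytosolic and 14 mitochondrial. TGATGNAA was found in 4 of the 11 cytosolic windows, Gars, Iars, Tars and Yars, and in 0 of the 14 mitochondrial ones, while 4.51% of all 27025 genes of the table hold it. CACGTG was found in 3 of 11 cytosolic windows (Iars, Tars and Farsb) and in 1 of 14 mitochondrial ones (Ears2), against 8.09% of all genes. A match describes letters only, and binding was not measured. The 4 windows that hold TGATGNAA are shown from 100 bases before the start to 30 after it, on the strand of the gene, with the letters of either motif in capitals. They lie at chr13:49682030-49682159 (+) for Iars, chr15:11399629-11399758 (-) for Tars, chr6:55037901-55038030 (+) for Gars and chr4:129189803-129189932 (+) for Yars.
Iars: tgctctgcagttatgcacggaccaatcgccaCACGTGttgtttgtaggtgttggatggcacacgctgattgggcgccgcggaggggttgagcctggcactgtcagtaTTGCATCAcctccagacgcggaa
Tars: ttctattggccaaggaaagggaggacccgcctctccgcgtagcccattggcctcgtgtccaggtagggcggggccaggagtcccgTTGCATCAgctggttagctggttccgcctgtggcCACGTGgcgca
Gars: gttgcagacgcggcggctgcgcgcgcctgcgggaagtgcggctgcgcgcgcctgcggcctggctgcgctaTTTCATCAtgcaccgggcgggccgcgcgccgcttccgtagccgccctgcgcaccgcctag
Yars: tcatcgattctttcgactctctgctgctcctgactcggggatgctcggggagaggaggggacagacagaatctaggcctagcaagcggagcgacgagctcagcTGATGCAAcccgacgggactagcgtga
In Iars, Tars and Gars the longer motif reads on the opposite strand. Iars and Tars hold both motifs. Of these 4 genes Iars, Tars and Gars rose with the inhibitor, and Yars (0.24) did not pass the threshold (limma, adjusted p = 0.105). Of all 18 cytosolic genes 8 rose, and the others of these, Vars, Rars, Wars, Cars and Mars1, had no match or no window. Whether a match goes with a rise was not tested.

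**Figure D3:**
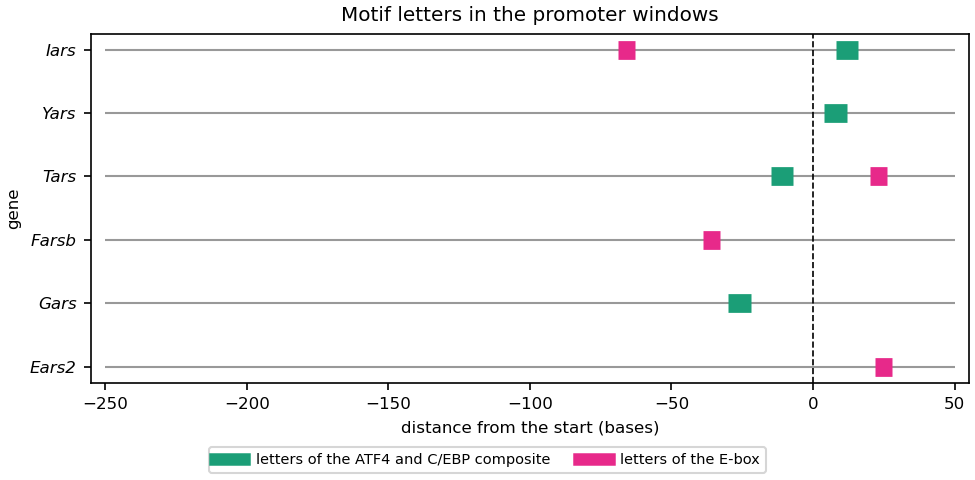
Position of the letters TGATGNAA (green) and CACGTG (pink) in the promoter windows of the 6 synthetase genes that hold either; the x axis gives the distance from the gene's start in bases, and each line spans the window searched. The green blocks of Gars, Iars, Tars and Yars lie between 30 bases before the start and 15 after it.

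The mitochondrial enzymes charge the tRNAs encoded in mitochondrial DNA and are themselves encoded in the nucleus. With the inhibitor, 2 of 15 tested rose and 0 fell (limma, with 2 higher and 0 lower at an unadjusted p under 0.05), and the median was 0.04. Of all 11963 genes tested, 2423 were higher and 1025 lower at that unadjusted p. The levels of the mitochondrial members were lower than those of the cytosolic ones, from 4.24 to 6.22, and 10.7% of the 5225 genes tested in that range rose. The part of this gap in level in the gap between cytosolic and mitochondrial fold changes was not tested. Pars2, for proline, read 3.60 to 3.74 over the 9 arrays, below the level filter, and was not tested.

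Yars2, for mitochondrial tyrosine, read 5.21, 5.25 and 5.30 in the controls and 5.63, 5.49 and 5.54 with the inhibitor, a rise of 0.30 ± 0.05 that held in each fit with an array left out (SE; limma, adjusted p = 0.00478, and at most 0.0271 with an array left out). Mars2, for mitochondrial methionine, read 4.91, 4.99 and 4.91 in the controls and 5.08, 5.32 and 5.15 with the inhibitor. The rise of Mars2 was 0.25 ± 0.06 (SE; limma, adjusted p = 0.0225), and it ended without control 1, control 3, inhibitor 2 or inhibitor 3 (limma, adjusted p of up to 0.086). In both genes every inhibitor array was above every control. The fold changes of the other 13 lay between -0.01 (Fars2, phenylalanine) and 0.11 (Iars2, isoleucine), and only Nars2 (asparagine, 0.09) had separate groups (limma, adjusted p = 0.414). With Yars2 and Mars2, 3 of the 15 thus had every inhibitor array above every control, near the 24.9% of all genes tested. Hars2, for histidine, had 1 array apart, with 5.23 on inhibitor 1 against 4.76 and 4.90 on the others.

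**Figure D4:**
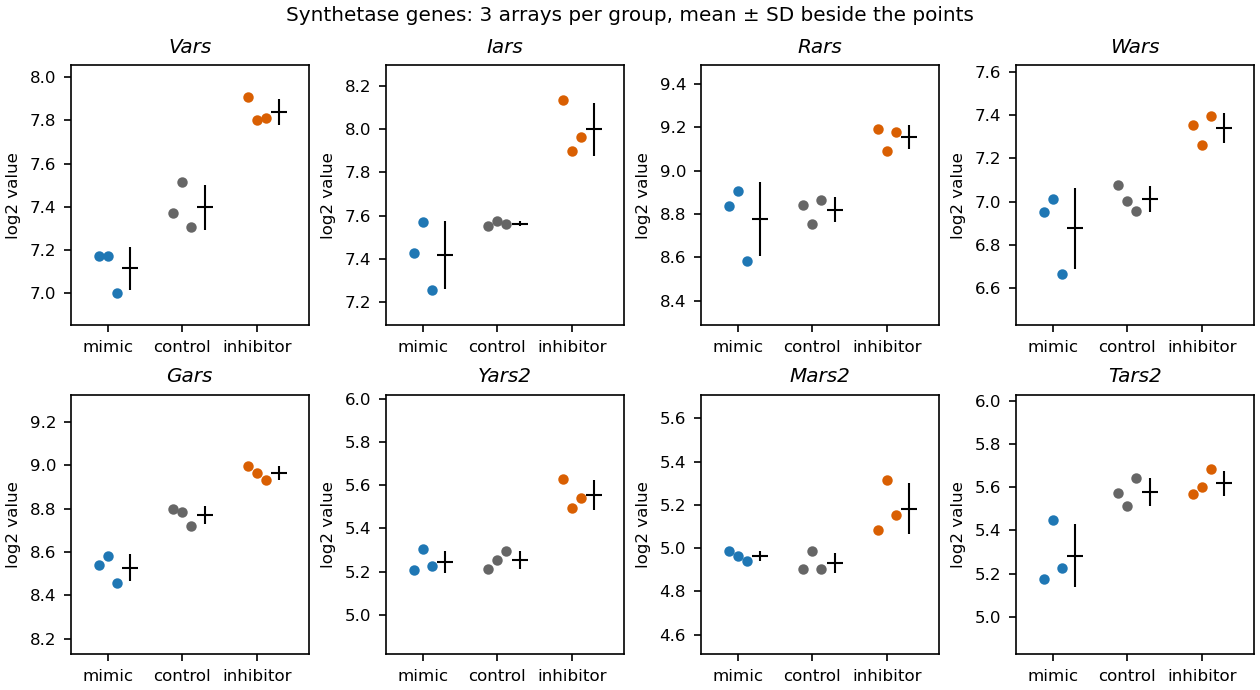
Log2 values of 8 synthetase genes on each array (points, 3 per group) with the group mean ± SD beside them; each panel spans 1.2 log2 units. The inhibitor arrays of Vars, Iars, Rars, Wars, Gars, Yars2 and Mars2 are all above the controls, and the mimic arrays of Vars, Gars and Tars2 are all below them.

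For 12 amino acids a cytosolic and a mitochondrial gene of matching symbol (such as Vars and Vars2) were both tested. The phenylalanine genes (Farsa, Farsb and Fars2) and the glutamate genes (Eprs and Ears2) were not paired. The inhibitor's fold change was larger for the cytosolic gene in 9 of the 12. Vars changed by 0.44 against -0.00 for Vars2, Rars by 0.34 against 0.01 for Rars2, Iars by 0.44 against 0.11 for Iars2, and Wars by 0.33 against 0.04 for Wars2. The difference between the genes of a pair was higher on every inhibitor array than on every control in 7 of the 12 pairs. In each of those 7 an exact two-sided permutation test gave p = 0.1. That is the smallest that 3 arrays against 3 allow, so no pair could pass 0.05. The count of 7 was not set against pairs of other genes. In the level ranges of the cytosolic and mitochondrial genes, 18.5% and 10.7% of all genes tested rose with the inhibitor. The part of level in the differences within pairs was not tested. Tyrosine and methionine went the other way, with 0.24 for Yars against 0.30 for Yars2 and 0.21 for Mars1 against 0.25 for Mars2, as did serine at -0.00 for Sars and 0.04 for Sars2, all with overlapping groups (exact permutation p = 0.4, 0.8 and 0.5).

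**Figure D5:**
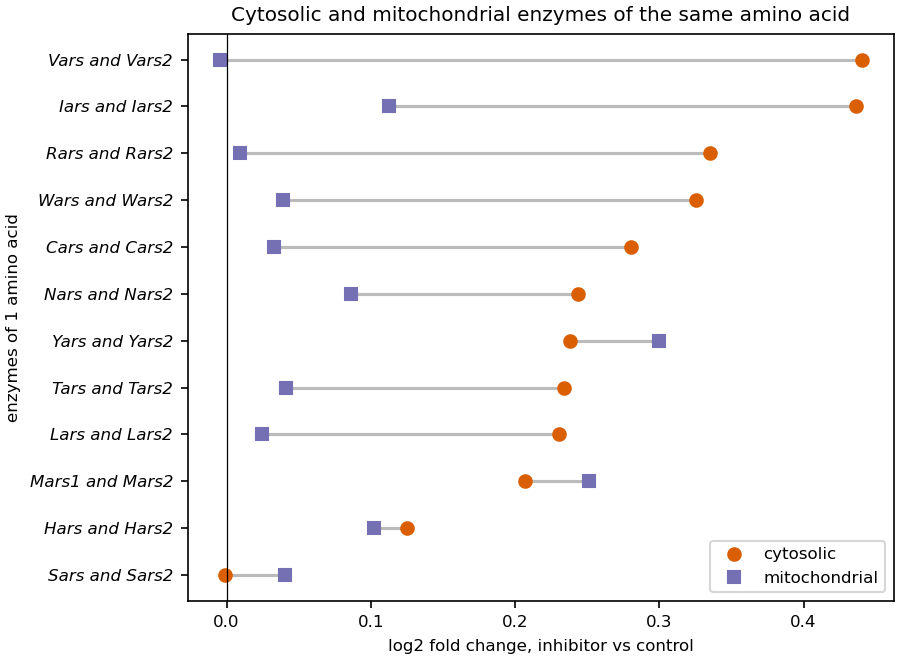
Log2 fold change with the inhibitor (x axis) of the cytosolic gene (circle) and the mitochondrial gene (square) of each of 12 amino acids, joined by a line. The circle lies to the right in 9 pairs, with the widest gap for Vars and Vars2, 0.45.

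The mimic comparison asks which of these genes fall when miR-378-3p is supplied. Gars was the 1 of 33 synthetase genes that fell, and 0 rose (limma, with 9 lower and 0 higher at an unadjusted p under 0.05), against 2.45% of all genes tested that fell and 1.1% that rose. At an unadjusted p under 0.05, 1202 of all 11963 genes tested were lower with the mimic and 701 higher (limma). Gars read 8.54, 8.58 and 8.46 with the mimic, each below the controls given above, a fall of -0.24 ± 0.05 on the log2 scale (SE; limma, adjusted p = 0.028). The call ended without any control, mimic 1 or inhibitor 3 (limma, adjusted p of up to 0.131). Among 18 cytosolic genes 17 had a fold change below 0, with a median of -0.14, and 1 above it, Eprs at 0.01, while 47.2% of all genes tested were above 0. In the level ranges of the cytosolic and mitochondrial genes, 4.5% and 2.07% of all genes tested fell. The mimic arrays differed among themselves: against the control mean, the median of the cytosolic genes was -0.09 on mimic 1, 0.01 on mimic 2 and -0.31 on mimic 3. Over the 33 genes the median log2 fold change was -0.07, and without mimic 3 it was 0.00, while all genes tested had a median of -0.01 with all arrays and 0.01 without mimic 3.

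Besides Gars, 6 genes had every mimic array below every control, against 12.7% of all genes tested, but none passed the threshold. Vars read 7.17, 7.17 and 7.0 with the mimic, which is -0.28 ± 0.07 from the control on the log2 scale (SE; limma, adjusted p = 0.0563). Tars2, for mitochondrial threonine, read 5.58, 5.51 and 5.64 in the controls and 5.17, 5.45 and 5.23 with the mimic, a difference of -0.29 ± 0.07 (SE; limma, adjusted p = 0.0604). Tars2 was thus the mitochondrial gene farthest below the controls, although its cytosolic counterpart Tars stood at -0.01. The others were Lars (-0.24), Mars1 (-0.19), Kars (-0.17) and Wars2 (-0.13), with adjusted p from 0.112 to 0.314 (limma). Fars2 (0.09) and Hars2 (0.09) had every mimic array above the controls, against 8.67% of all genes tested, and also did not pass (limma, adjusted p = 0.408 and 0.741). Without mimic 2, 4 genes fell, and without any 1 of the controls, mimic 1 or inhibitor 3 none did (limma).

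Mimic and inhibitor were also set against each other, a comparison that uses no control array in the difference. Of 33 synthetase genes, 19 were lower with the mimic than with the inhibitor and 0 were higher (limma, with 20 lower and 0 higher at an unadjusted p under 0.05), against 19.9% and 6.91% of all genes tested. At that unadjusted p, 3226 of all 11963 genes tested were lower and 1381 higher. Past the adjusted threshold, 2377 of all genes tested were lower and 827 higher as deposited, against 1944 and 1825 after quantile normalization (limma). After centring 1806 were lower and 2347 higher, and 15 and 1 of the 33 were lower and higher (limma). The median log2 fold change of the 33 was -0.25 as deposited, -0.15 after quantile normalization and -0.15 after centring. Over all genes tested it was -0.02, 0.01 and 0.08. The 19 comprised 15 of 18 cytosolic genes, with a median of -0.38 and none above 0 (46.4% of all genes tested were above 0), and 4 of 15 mitochondrial genes, with a median of -0.02. Among all genes tested in the same level ranges, 31.8% were lower in the cytosolic range and 19.3% in the mitochondrial one. Every mimic array lay below every inhibitor array in 20 of the 33, against 25.7% of all genes tested, and above in 1, Fars2, against 12.9%. The number called lay between 14 and 19 with any single array left out (limma).

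Vars differed most, by -0.72 ± 0.07 (SE; limma, adjusted p = 9.32e-05), a ratio of 0.606 between mimic and inhibitor and the only difference of at least 1.5-fold. Iars followed at -0.58 ± 0.08 (adjusted p = 0.000747), with 7.42, 7.57 and 7.25 on the mimic arrays. Lars stood at 6.73, 6.82 and 6.52 with the mimic, a difference of -0.47 from the inhibitor (limma, adjusted p = 0.00204). Cars, at 6.83, 7.04 and 6.69, differed by -0.47, and Wars, at 6.95, 7.01 and 6.66, by -0.46. Nars, at 8.91, 9.0 and 8.61, differed by -0.45 and Gars by -0.44 (limma, adjusted p = 0.000244). In each of these 7 genes every mimic array lay below every inhibitor array, and mimic 3 was the lowest of the 9.

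Mars1 (7.20, 7.25 and 7.18 with the mimic), Kars (7.14, 7.16 and 6.86), Rars (8.84, 8.91 and 8.58) and Yars (8.08, 8.22 and 7.87) differed by -0.39, -0.38, -0.38 and -0.36 (limma, adjusted p of at most 0.0129). The call of Yars ended without inhibitor 1 (limma, adjusted p = 0.0525). Hars (-0.30), Farsb (-0.28), Farsa (-0.27) and Tars (-0.25) completed the cytosolic genes. The calls of Farsa, Hars and Tars ended when 5, 2 and 3 of the 9 arrays were dropped in turn (limma, adjusted p at most 0.0835, 0.0701 and 0.0833): mimic 1, mimic 3 or any inhibitor array for Farsa, mimic 1 or inhibitor 1 for Hars, and mimic 3, inhibitor 1 or inhibitor 3 for Tars. Eprs (-0.14), Sars (-0.09) and Qars (-0.03) did not pass. The 4 mitochondrial genes were Tars2 (-0.33), Yars2 (-0.31), Mars2 (-0.22) and Wars2 (-0.17), of which Mars2 lost its call without mimic 1, inhibitor 2 or inhibitor 3 (limma, adjusted p of up to 0.0699) and Wars2 without mimic 1, mimic 2, inhibitor 1 or inhibitor 3 (0.0853).

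Both comparisons with the control share the control arrays, so their fold changes are given side by side without a test of their relation. Gars stood at 0.20 with the inhibitor and -0.24 with the mimic, Vars at 0.44 and -0.28, and Lars at 0.23 and -0.24. Rars (0.34 and -0.04), Tars (0.23 and -0.01) and Yars2 (0.30 and -0.01) were above the control with the inhibitor and near it with the mimic. Tars2 was the reverse, at 0.04 and -0.29.

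Among partners of these enzymes, the scaffold gene Eef1e1 read 6.39, 6.58 and 6.52 in the controls, 7.0, 6.67 and 7.01 with the inhibitor and 6.32, 6.23 and 6.22 with the mimic. It rose by 0.40 ± 0.09 with the inhibitor (SE; limma, adjusted p = 0.0146), and its 3 groups did not overlap. The other scaffold genes did not pass, with Aimp2 at 0.17 (limma, adjusted p = 0.103) and Aimp1 at -0.04 (0.793). Of 34 genes tested that make, modify or export tRNA, 10 rose and 0 fell with the inhibitor (limma, with 15 higher and 0 lower at an unadjusted p under 0.05), against 11.1% and 3.76% of all genes tested. At that unadjusted p, 2423 of all 11963 genes tested were higher and 1025 lower. The median of the 34 was 0.13, and 6 of them had a fold change below 0. The largest rises were those of Trmt61a (0.52) and Trmt6 (0.32), the subunits of a tRNA methyltransferase, Trnt1 (0.39), which adds the CCA end that synthetases charge, Xpot (0.38), which exports tRNA from the nucleus, Elac2 (0.35), which trims tRNA precursors, and Nsun2 (0.34), a tRNA cytosine methyltransferase (limma, adjusted p of at most 0.0175). With the mimic Elp3, the catalytic subunit of the Elongator complex that modifies tRNA, fell by 0.45 (limma, adjusted p = 0.0275), and the median was -0.05.

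Of 31 genes of the ATF4 amino acid response tested, 12 rose and 2 fell with the inhibitor (limma), against 11.1% and 3.76% of all genes tested, and the median was 0.20. Slc7a1 and Slc7a5, which carry cationic and large neutral amino acids, rose by 1.29 and 0.56, the folate enzyme gene Mthfd1l by 0.67, Trib3 by 0.66, the cystine carrier gene Slc7a11 by 0.55 and Cebpb by 0.43 (limma, adjusted p of at most 0.0239). Atf5 and Pck2 fell by 0.32 and 0.29 (limma, adjusted p = 0.0062 and 0.0156). Atf4 itself read 7.46, 7.55 and 7.42 in the controls and 7.47, 7.42 and 7.49 with the inhibitor, a difference of -0.02 ± 0.06 (SE; limma, adjusted p = 0.894). Its groups overlapped, and the ATF4 protein was not measured. Myc read 6.68, 6.78 and 6.60 in the controls, 7.90, 7.78 and 7.87 with the inhibitor and 7.03, 6.96 and 6.69 with the mimic. Myc rose by 1.16 with the inhibitor (limma, adjusted p = 4.81e-05) and stood at 0.20 with the mimic (0.283).

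Mitochondrial translation factors held 1 rise and 1 fall among 14 tested with the inhibitor, near the 11.1% and 3.76% of all genes tested, with a median of 0.01. Gfm1, an elongation factor of mitochondria, rose by 0.32 and Mtif3, an initiation factor, fell by 0.19 (limma, adjusted p = 0.0164 and 0.0366). Mtif3 read exactly 4.456 on each of the 3 mimic arrays (SD 0), and that group enters the spread used for its p-value. Enzymes that supply or convert amino acids rose in 3 of 8 cases, against 11.1% of all genes tested, with Got1 (0.44), the branched-chain aminotransferase gene Bcat1 (0.43) and Shmt1 (0.34) above the threshold (limma, adjusted p of at most 0.0248) and a median of 0.22. The lists were chosen with earlier results of these data in view, so their counts are descriptions.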

How the data were processed

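RNA of 9 samples (3 groups of 3) was hybridised to Affymetrix mouse arrays. The authors deposited log2 expression values per probe set, normalized by RMA in Partek 6.5 per the submitters' processing notes. Which genome build was used: not given in the sources used here. Of 28853 probe sets, 21789 were listed for 1 gene, 1621 for several and 5443 for none; where a gene had several sets (999 genes), the set with the highest mean stood for it. Genes whose mean lay below 3.86, the 40th percentile, were left out, leaving 11963. Groups were compared with limma 3.58.1 (R 4.3.3) in a single fit of all 9 arrays, with Benjamini-Hochberg adjustment over all genes tested and a threshold of 0.05. The fit was tested on simulated data. Array number limits the precision.

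Pairs of cytosolic and mitochondrial genes were compared by an exact permutation test, chosen after seeing the data (scipy 1.17.1). Members and lists were chosen with earlier results of these data known. Every synthetase gene was accounted for; the 12 called genes with the largest change in any comparison were named in full, and from the lists the called genes, at most 6 with the largest change with the inhibitor, plus Atf4, Myc, Eef1e1, Aimp1 and Aimp2. Yars2, Mars2, Tars, Atf5, Pck2, Elp3, Mtif3, Gtf3a and Polr3gl were given beyond this rule after their values were seen. Listed genes called only between mimic and inhibitor, such as Gtf3c1, Gtf3c4 and Gtf3c6, were not given, except Aimp2. Promoter sequences are RefSeq's (GRCm38.p6). Alternatives were other level filters, normalizations, samples, moderation and a replicate block, and leaving out each array.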

Additional observations from a re-analysis of the deposited data

How the results depend on the processing

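The members called with the inhibitor against the control (10) numbered 6 with median centring, 16 with only the 6 arrays compared, 7 without the level filter or with the replicate block, 15 without mimic 3 and inhibitor 1, and 0 at a fold of at least 1.5; with 1 array left out they ranged from 4 to 16. Against the control, the mimic's single call became 5 with quantile normalization, 3 with median centring, 0 with only the 6 arrays compared and 0 at a fold of at least 1.5, was 1 with the replicate block, and ranged from 0 to 4 with 1 array left out. Between mimic and inhibitor, the 19 calls became 1 at a fold of at least 1.5, were 19 with the replicate block, and ranged from 14 to 19 with 1 array left out. Deviations of same-numbered arrays from their group means had correlations from -0.589 to 0.224 over 9 pairs. For arrays of different number they ran from -0.58 to 0.634. With 3 arrays per group these correlations cannot settle whether the numbers pair the arrays. Of 1866 refits of single genes, 1714 kept their side of the threshold, 121 lost a call and 31 gained one. The refits covered 99 results, of which only the 10, 1 and 19 calls above could be lost. Most of the 1714 were thus results called in neither fit. The sign differed in 87 refits, in 0 of them for a gene called in either fit. The cause of these differences was not tested. Tested mitochondrial genes had mean levels from 4.24 to 6.22, closer to the level filter of 3.86 than the cytosolic genes at 6.5 to 9.06; what this does to their calls was not tested.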

Other observations

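RNA polymerase III, which transcribes tRNA genes, and its factors held 3 rises and 1 fall among 20 genes tested with the inhibitor, near the 11.1% and 3.76% of all genes tested, with a median of 0.03. Bdp1, a subunit of the initiation factor TFIIIB, rose by 0.33, and the polymerase subunit genes Polr3a and Polr3e by 0.32 and 0.26, while Polr3gl fell by 0.17 (limma, adjusted p of at most 0.0414). With the mimic, Gtf3a, which encodes TFIIIA, fell by 0.34 (limma, adjusted p = 0.0133). Cytosolic elongation factors, which bring charged tRNA to the ribosome, held 0 calls among 6 with the inhibitor (limma, 1 higher and 1 lower at an unadjusted p under 0.05). At that unadjusted p, 2423 of all 11963 genes tested were higher and 1025 lower. Of 5 synthetase-like genes tested, Lrrc47 rose by 0.27 (limma, adjusted p = 0.0424).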
